A study of Mus musculus with 6 samples.

Results

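The protein-coding genes of the cytosolic ribosome were compared in the frontal cortex of GFAP-IL6 and wild-type (WT) mice. Members were the protein-coding rows whose symbol begins with Rps or Rpl followed by a subunit number, together with the stalk genes Rplp0, Rplp1 and Rplp2 and with Rpsa. The rule found 85 genes among the 33000 rows of the table, 33 named for the small (40S) subunit and 52 for the large (60S) subunit, and used no measured value. Messenger RNA was sequenced with the TruSeq protocol in 6 libraries, each from a separate C57BL/6 mouse aged 3 months. The GFAP-IL6 group (n = 3) was homozygous for a transgene in which the promoter of Gfap, a gene of astrocytes, drives the cytokine interleukin 6, and the WT group (n = 3) carried no transgene. No agent was given to either group.

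Each ribosome holds a single copy of nearly every one of these proteins, arranged around the ribosomal RNAs, so the genes are expressed at high levels in nearly all cells. Most of their mRNAs begin with a 5′ terminal oligopyrimidine (TOP) tract, a C followed by a run of pyrimidines. Through it the kinase complex mTORC1 and the binding protein Larp1 regulate their translation. In brain tissue the levels also depend on which cells and which regions were dissected, and in a bulk sample fewer cells of a type and less RNA per cell cannot be told apart.

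Total counts ranged from 7559524 to 16877001 per library. Il6 was counted 0, 2 and 0 times in WT replicates 1 to 3 and 12, 10 and 24 times in GFAP-IL6 replicates 1 to 3, which follows the labels. Gfap was at 76.5, 122.8 and 84.2 CPM (counts per 1000000 counts of the library, with TMM scaling) in WT and at 517.5, 645.6 and 870.2 CPM in GFAP-IL6. WT replicate 2 stood apart from the other libraries, as 29.5% of all genes tested had their highest value there. The other 5 libraries held between 9.50% (WT replicate 3) and 21.4% (GFAP-IL6 replicate 3). It also held the highest summed level of 9 striatal markers, at 499.5 CPM against 259.3 to 331.2 CPM in the other 5 libraries, and of 9 oligodendrocyte markers, at 6268 CPM against 3416 to 5667 CPM. The 10 neuronal markers, which mark the main cells of the labelled tissue, were all detected and summed to between 10922 and 12526 CPM.

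The TOP tract is shown at the start site for members whose values are described below. RefSeq starts on GRCm38.p6 were matched for 64 of the 85 members by symbol, giving 76 starts. The motif searched was a C at the first transcribed base followed by at least 4 bases that are each C or T, on the transcribed strand. It was present at 13 of the 76 member starts (17.1%), in 13 genes, and at 823 of all 32851 RefSeq starts of genes in the table (2.51%). Each line gives 15 bases before and 15 bases from the start, with the pyrimidine run in capitals.
Rps6, chr4:86857353-86857382, minus strand: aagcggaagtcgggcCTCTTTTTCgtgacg
Rpl15, chr14:18270972-18271001, minus strand: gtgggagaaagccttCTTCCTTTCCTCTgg
Rpl38, chr11:114668565-114668594, plus strand: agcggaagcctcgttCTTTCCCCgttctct
Rpl35, chr2:39005117-39005146, minus strand: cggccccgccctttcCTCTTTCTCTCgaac
At other members no such run stood at the annotated start, which says only that these letters are not at that base, since an annotated start can lie some bases from the one used. The next lines show starts of this kind, with no capitals.
Rplp0, chr5:115559452-115559481, plus strand: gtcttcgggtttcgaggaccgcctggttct
Rpl39, chrX:37085208-37085237, minus strand: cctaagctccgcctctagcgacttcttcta
Rpl22l1, chr3:28805493-28805522, plus strand: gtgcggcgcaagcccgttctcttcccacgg

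No ribosomal protein gene passed the test between GFAP-IL6 and WT. Of the 85 members, 82 had enough counts to be tested and 0 were called higher or lower at an adjusted p under 0.05 with edgeR's quasi-likelihood test, where 2.65% of the 15341 genes tested were called higher and 0.209% lower. At an unadjusted p under 0.05, 0 members were higher, against 11.1% of all genes, and 9 were lower, against 9.37% of all genes. DESeq2 called 0 members, where it called 2.38% of all genes higher and 0.561% lower, and limma-voom called 0 members, where it called 2.61% higher and 0.156% lower. None met the 2 thresholds of the study together, which asked for a log2 change of more than 1 in size beside the adjusted p under 0.05 and which 1.38% of all genes met.

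The estimates nevertheless lay on one side. The log2 fold change of GFAP-IL6 over WT was below 0 for 77 of the 82 members tested, and for 50.6% of all genes. Its median was -0.15 over the members and -0.0038 over all genes, and it ran from -0.44 for Rpl22l1 to 0.064 for Rplp0. The groups did not overlap, with every GFAP-IL6 library below every WT library, for 8 members tested (9.76%), against 12.7% of all genes. For 0 members did every GFAP-IL6 library lie above every WT library, against 13.8% of all genes.

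The precision was high enough to bound the changes. The standard error of the log2 fold change was between 0.080 and 0.21 with a median of 0.11. The 95% interval of all 82 members lay within a 2-fold change in either direction and that of 76 members within a 1.5-fold change. The upper end of every interval was below a 1.2-fold increase, at a log2 value of at most 0.26, whereas the lower ends reached -0.83.

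**Figure D1:**
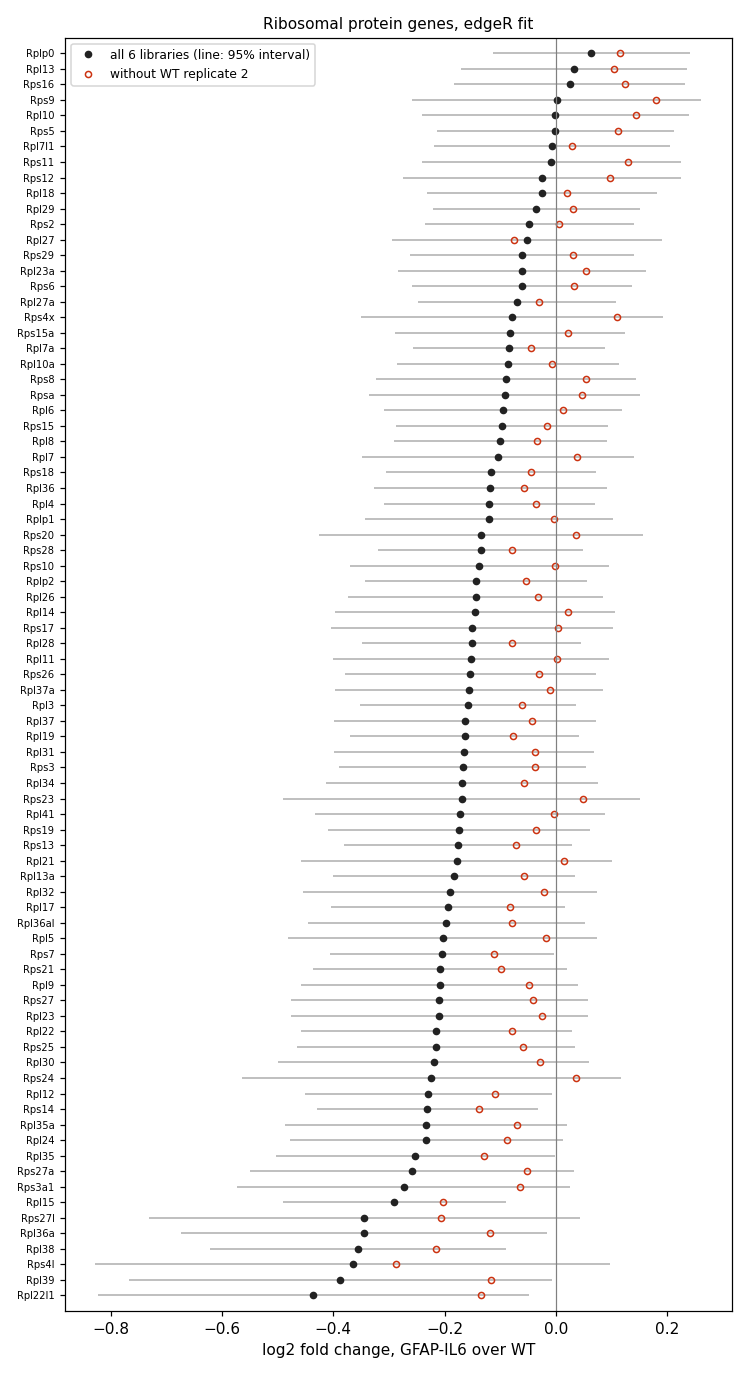
Log2 fold change of GFAP-IL6 over WT for 81 of the 82 members tested, in order of size, from the edgeR fit of all 6 libraries (filled points, with the 95% interval as a line) and from the fit without WT replicate 2 (open points). The filled points lie mostly left of 0, and the open points lie closer to it. The medians over the 82 members are -0.15 and -0.032.

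The one-sided estimates moved with a single library. Ribosomal protein genes took 0.802, 1.05 and 0.841% of all counts in WT replicates 1 to 3 and 0.806, 0.812 and 0.868% in GFAP-IL6 replicates 1 to 3. WT replicate 2 was the highest, and the other 5 libraries lay between 0.802 and 0.868%, with WT replicate 3 inside the GFAP-IL6 range and WT replicate 1 just below it. The mean share was 0.898% ± 0.134 over the WT mice and 0.829% ± 0.0345 over the GFAP-IL6 mice (SD, n = 3 each), a difference smaller than the SD of the WT group. The mean of WT replicates 1 and 3 was 0.821%.

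**Figure D2:**
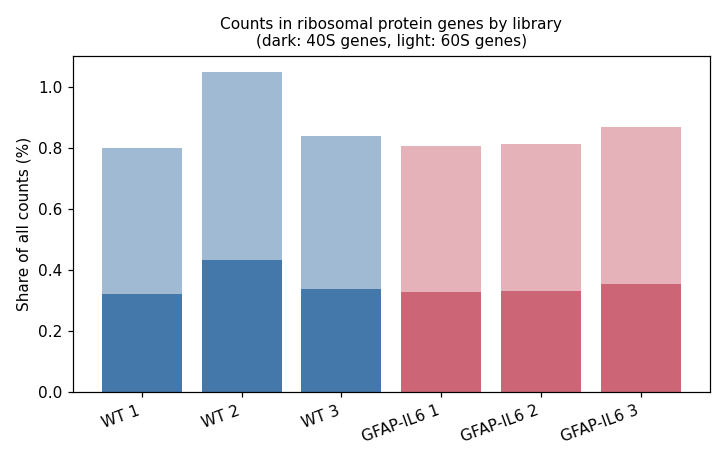
Share of all counts, in percent, that fell in 40S genes (dark) and 60S genes (light) in each WT (blue) and GFAP-IL6 (red) library, stacked from 0. WT replicate 2 reaches 1.05%, and the other 5 libraries reach 0.802 to 0.868%.

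The excess in WT replicate 2 ran through nearly the whole family. That library held the highest CPM of the 6 for 77 of the 82 members tested (93.9%), against 29.5% of all genes. The 5 exceptions were Rpl27, Rpl18, Rpl7l1, Rpl13 and Rplp0. On the log2 CPM scale, WT replicate 2 exceeded the mean of WT replicates 1 and 3 in 81 of 82 members (98.8%), against 53.6% of all genes. The difference had a median of 0.34, or 1.26-fold, and ran from -0.061 for Rpl27 to 0.76 for Rpl22l1. The median deviation of the members from their own mean over the 6 libraries was -0.080, 0.30 and -0.017 in WT and -0.097, -0.099 and 0.0042 in GFAP-IL6. The striatal and oligodendrocyte markers were also highest in WT replicate 2, and their part in the ribosomal protein levels was not tested.

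**Figure D3:**
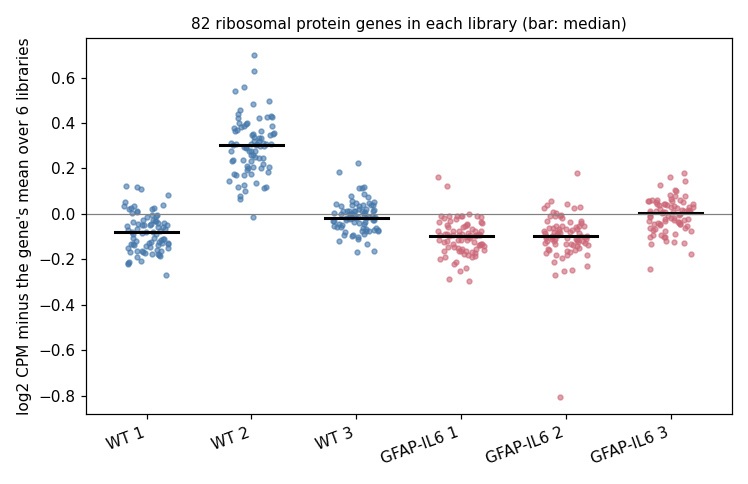
Log2 CPM of each of the 82 members tested minus its mean over the 6 libraries, with 1 point per gene in each WT (blue) and GFAP-IL6 (red) library and a bar at the median. The points of WT replicate 2 sit around a median of 0.30, and the medians of the other 5 libraries lie between -0.099 and 0.0042.

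Without WT replicate 2 the members lay less to one side. The median log2 fold change was -0.032, with 29 members above 0 and 53 below (64.6%), against 50.6% of all genes below 0. In that fit 0 members were called, at a lowest adjusted p of 0.197 in edgeR, where 2.96% of all genes were called higher and 0.316% lower. At an unadjusted p under 0.05 there were 1 member higher, Rps9, against 9.93% of all genes, and 2 members lower, Rpl15 and Rpl38, against 5.96%. Without WT replicate 1, the library with the lowest share among the WT mice, 4 members were called lower, namely Rpl15, Rpl22l1, Rpl38 and Rpl36a, where 2.38% of all genes were called lower in that fit, and the median was -0.22. With the genes of low count kept in, Rpl22l1 and Rpl38 were called lower, as were 1.56% of all genes. All 6 of these calls rest on a WT group that includes replicate 2.

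The 40S genes encode the subunit that binds the mRNA and decodes it. Their median log2 fold change was -0.14 over 33 genes tested, of which 31 were below 0. Without WT replicate 2 it was -0.0017, with 17 below 0. Rps6, the substrate of the S6 kinases downstream of mTORC1, was at 93.1, 113.3 and 95.1 CPM in WT and at 94.9, 97.6 and 96.8 CPM in GFAP-IL6. Apart from WT replicate 2 these values lay between 93.1 and 97.6 CPM. The log2 fold change of Rps6 came to -0.061 ± 0.091 (SE, adjusted p = 0.735 in edgeR).

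Rpsa encodes a 40S protein that is also known as a laminin receptor, and its mRNA was at 141.1, 197.9 and 162.3 CPM in WT and at 150.3, 153.1 and 167.5 CPM in GFAP-IL6. The groups overlapped, at a log2 fold change of -0.092 ± 0.11 (SE). Rps27a, which encodes ubiquitin fused to a 40S protein, was at 120.2, 186.6 and 134.6 CPM in WT and at 119.2, 121.1 and 129.3 CPM in GFAP-IL6. Its log2 fold change of -0.26 ± 0.13 (SE, adjusted p = 0.295 in edgeR) became -0.051 without WT replicate 2.

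Rps3, a 40S protein at the site where mRNA enters, was the most abundant 40S gene by CPM, at 236.3 ± 35.9 CPM over the WT mice and 210.6 ± 8.14 CPM over the GFAP-IL6 mice (SD, n = 3 each). Rps9 was at 105.2, 150.7 and 111.2 CPM in WT and at 121.1, 121.5 and 125.5 CPM in GFAP-IL6. The 3 GFAP-IL6 libraries therefore lay above WT replicates 1 and 3 and below WT replicate 2. The log2 fold change of Rps9 was 0.0017 ± 0.12 (SE) in all libraries and 0.18 ± 0.076 (SE, adjusted p = 0.256 in edgeR) without WT replicate 2. Rps16 was the other 40S gene among the 5 highest estimates, at 70.4 ± 8.16 CPM over the WT mice and 71.8 ± 3.99 CPM over the GFAP-IL6 mice (SD, n = 3 each).

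The 60S genes encode the subunit that joins amino acids and holds the exit tunnel. Their median log2 fold change was -0.16 over 49 genes tested, of which 46 were below 0. Without WT replicate 2 it was -0.036, with 36 below 0. Rpl15 (GRCm38 chr14:18267823-18271391, minus strand), a core protein of this subunit whose TOP tract is shown above, had the lowest adjusted p of the family. It is named for that after its values were seen. Its level was 83.1, 101.2 and 86.8 CPM in WT and 70.1, 75.1 and 76.8 CPM in GFAP-IL6.

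All 3 GFAP-IL6 libraries lay below all 3 WT libraries for Rpl15. edgeR put its log2 fold change at -0.29 ± 0.093 (SE, adjusted p = 0.118), and at -0.20 ± 0.076 (SE, adjusted p = 0.197) without WT replicate 2. The other members tested whose groups did not overlap were Rpl12, Rpl17, Rpl3, Rps7, Rps13, Rps14 and Rps28, all lower in GFAP-IL6, with log2 fold changes from -0.23 for Rps14 to -0.13 for Rps28. Rps14 was at 143.9, 174.5 and 146.7 CPM in WT and at 127.2, 130.9 and 138.4 CPM in GFAP-IL6.

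Rpl38, known for its part in the translation of Hox mRNAs during development, was at 68.0, 93.6 and 75.2 CPM in WT and at 56.6, 58.2 and 70.8 CPM in GFAP-IL6. The groups overlapped in GFAP-IL6 replicate 3. Its log2 fold change was -0.36 ± 0.12 (SE, adjusted p = 0.141 in edgeR) and -0.22 ± 0.095 without WT replicate 2. Rpl39, a short protein of the exit tunnel, was at 18.5, 32.0 and 21.3 CPM in WT and at 19.6, 17.2 and 18.3 CPM in GFAP-IL6. Its log2 fold change of -0.39 ± 0.18 (SE) became -0.12 without WT replicate 2.

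The most abundant 60S genes by CPM were Rpl4, Rpl3, Rpl13a and Rpl9. Rpl4, a protein lining the exit tunnel, was at 413.5, 501.0 and 435.0 CPM in WT and at 395.7, 420.7 and 426.3 CPM in GFAP-IL6, with a log2 fold change of -0.12 ± 0.087 (SE). Rpl3 was at 262.0 ± 30.0 CPM over the WT mice and 234.9 ± 3.79 CPM over the GFAP-IL6 mice (SD, n = 3 each). Rpl13a and Rpl9 had log2 fold changes of -0.18 ± 0.10 and -0.21 ± 0.11 (SE). All of these estimates moved to between -0.061 and -0.036 without WT replicate 2. Rpl13 was among the 5 highest estimates, at a log2 fold change of 0.033 ± 0.093 (SE).

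The P stalk is the arm of the 60S subunit that recruits and activates the translation factors with GTPase activity. Rplp0, its base, was at 117.9, 133.4 and 122.5 CPM in WT and at 126.5, 128.1 and 136.4 CPM in GFAP-IL6. It had the highest estimate of the family, at 0.064 ± 0.082 (SE, adjusted p = 0.686 in edgeR), and was highest in GFAP-IL6 replicate 3 rather than in WT replicate 2. Its partners had estimates below 0, at -0.12 ± 0.10 (SE) for Rplp1 and -0.14 ± 0.092 (SE) for Rplp2, and Rplp1 was at -0.0025 without WT replicate 2. Per kilobase of the gene length in the table, the members tested lay between 6.82 CPM per kb for Rps4l and 406.8 CPM per kb for Rplp1, around a median of 104.9 CPM per kb. By the length of the principal transcript Rps15 was highest, at 408.3 CPM per kb, and Rplp1 next, at 403.5 CPM per kb. Reads that align to more than 1 gene were not counted, so the order of members by level, here and above, is uncertain.

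The subunits kept a near constant ratio. Counts in 60S genes divided by counts in 40S genes came to 1.49, 1.43 and 1.47 in WT and to 1.46, 1.43 and 1.44 in GFAP-IL6. The groups overlapped only through WT replicate 2, which had the highest share of both subunits and the lowest ratio. WT replicates 1 and 3 lay above all GFAP-IL6 libraries, at a mean of 1.48 against 1.44, a difference that was not tested.

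Some core subunits have a paralog, and the protein of some of these paralogs can take the same place in the ribosome. Of the 8 paralogs, 5 were tested, and Rpl3l, Rpl39l and Rpl10l were not. Rpl3l, a paralog of Rpl3 known from heart and skeletal muscle, had between 2 and 6 counts in each library. Rpl39l, known from testis, had 1 count in WT replicate 2 and 0 in the other libraries, and Rpl10l, also known from testis, had 0 counts in all libraries. The limit that 0 counts allow is 3 counts, or between 0.179 and 0.396 CPM, which covers counting error only.

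Rpl22l1 (GRCm38 chr3:28805436-28807424, plus strand) had the lowest estimate of the family. It was at 32.8, 60.1 and 38.2 CPM in WT and at 33.5, 32.6 and 31.3 CPM in GFAP-IL6. WT replicate 2 was far above the rest, and GFAP-IL6 replicate 1 was above WT replicate 1, so that the groups overlapped. The log2 fold change was -0.44 ± 0.18 (SE, adjusted p = 0.198 in edgeR) and -0.13 ± 0.096 without WT replicate 2. Its core gene Rpl22 was at 92.1 ± 15.4 CPM over the WT mice and 79.4 ± 4.41 CPM over the GFAP-IL6 mice (SD, n = 3 each), so that the CPM of Rpl22l1 was 42.0, 55.4 and 42.7% of that of Rpl22 in WT and 39.7, 42.8 and 40.3% in GFAP-IL6. These percentages are not corrected for the length of the genes and are compared only between libraries.

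Rpl36a was at 44.4, 75.9 and 55.8 CPM in WT and at 46.0, 45.8 and 47.4 CPM in GFAP-IL6, again highest in WT replicate 2. Its log2 fold change was -0.35 ± 0.15 (SE, adjusted p = 0.224 in edgeR), and -0.12 without that library. Its paralog Rpl36al went less far, at -0.20 ± 0.11 (SE), and its CPM was between 42.1 and 59.2% of that of Rpl36a. Both genes encode nearly identical proteins, and reads that align to more than 1 gene were not counted, so their levels are uncertain.

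Rpl7l1 had nearly equal means in both groups, at 33.7 ± 3.20 CPM over the WT mice and 33.7 ± 1.79 CPM over the GFAP-IL6 mice (SD, n = 3 each), and its core gene Rpl7 was at -0.10 ± 0.11 (SE). Rps27l, a target of p53, was at 6.53, 9.90 and 8.60 CPM in WT and at 6.72, 6.21 and 6.92 CPM in GFAP-IL6, with a log2 fold change of -0.34 ± 0.18 (SE). Rps27, its core gene, was at -0.21 ± 0.12 (SE). Rps4l was at 6.79, 7.99 and 7.09 CPM in WT and at 6.99, 3.57 and 6.14 CPM in GFAP-IL6, where the low value of GFAP-IL6 replicate 2 came from 27 counts. Its core gene Rps4x was at 144.4, 215.0 and 158.5 CPM in WT and at 156.5, 165.9 and 168.8 CPM in GFAP-IL6. Rpl10 had almost the same mean in both groups, at 135.4 ± 23.5 CPM over the WT mice and 135.6 ± 4.36 CPM over the GFAP-IL6 mice (SD, n = 3 each).

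**Figure D4:**
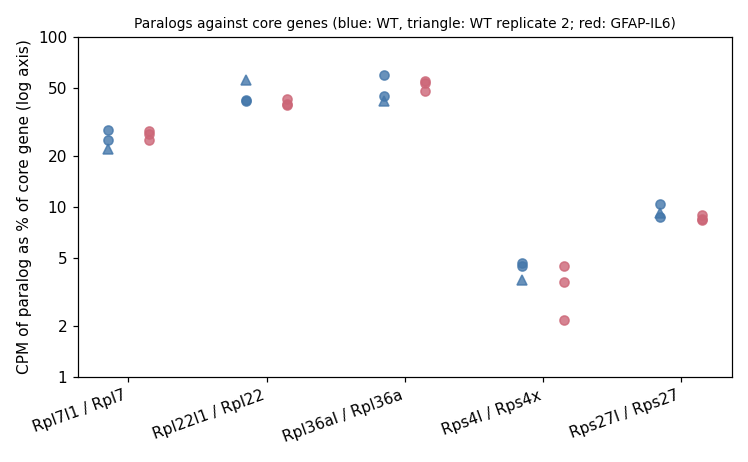
CPM of 5 paralogs as a percentage of the CPM of their core gene, on a log axis, with 1 point per library (WT blue, with WT replicate 2 as a triangle, and GFAP-IL6 red). For Rpl22l1 the triangle stands at 55.4%, above the other 5 libraries at 39.7 to 42.8%, and in all 5 pairs the groups overlap.

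Ribosomal protein genes are short, and gene length was followed for that reason. The median length in the table was 880 bases for the members, 55 of them under 1000 bases, and 3134 bases for all genes tested. Among other genes the median of the log2 fold change was -0.11 at 500 to under 1000 bases and -0.085 at 1000 to under 2000 bases, against -0.017 at 2000 to under 4000 bases and 0.052 at 4000 bases and over. Members had medians of -0.16 in 45 genes of 500 to under 1000 bases and -0.14 in 19 genes of 1000 to under 2000 bases. The 8 members of 2000 to under 4000 bases were all below 0, at a median of -0.19, at -0.16 with the length offset described next and at -0.0010 without WT replicate 2. In 9 members under 500 bases the median was -0.15, whereas 302 other genes of that size had a median of 0.080.

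With an offset for gene length in each library, the median over the members was -0.059, with 59 of 82 below 0, against 51.2% of all genes. In that fit 0 members were called, where 2.78% of all genes were called higher and 0.254% lower, and with an offset for length and GC content the median was -0.039. The offset roughly removed the trend among other genes, whose medians then lay between -0.0096 and 0.054. Without WT replicate 2, members of 500 to under 1000 bases had a median of -0.034 and other genes of that size a median of -0.065. Among the 82 members themselves, length and log2 fold change had a Pearson correlation of 0.15 and a Spearman correlation of 0.072, a description over genes that share libraries.

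**Figure D5:**
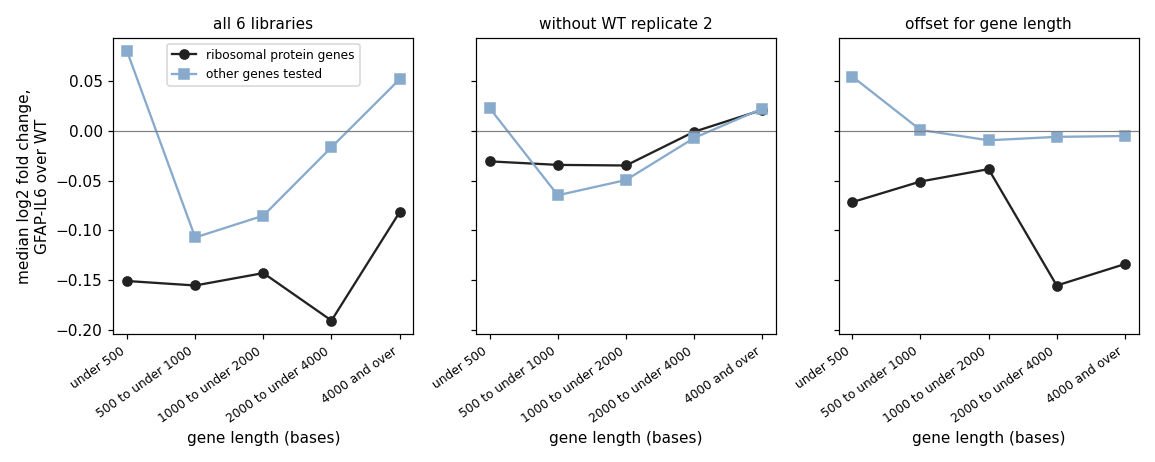
Median log2 fold change of GFAP-IL6 over WT by gene length in bases, for ribosomal protein genes (black circles, 9, 45, 19, 8 and 1 genes from left to right) and other genes tested (blue squares), in the fit of all 6 libraries, the fit without WT replicate 2 and the fit with an offset for gene length. In the first panel members at 500 to under 1000 bases stand at -0.16 and other genes at -0.11, and in the second at -0.034 and -0.065.

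Length was not the only feature along which WT replicate 2 differed. Among other genes, the log2 CPM of WT replicate 2 minus the mean of WT replicates 1 and 3 had a median of 0.15 at 500 to under 1000 bases and of -0.063 at 4000 bases and over, while members had 0.33 and, for the single member of that size, 0.29. It also had a median of 0.13 in other genes under 45% GC and of -0.085 in those of 55% GC and over. The same order held among members, at 0.43 in 4 genes under 45% GC and 0.22 in 18 genes of 55% and over. Across the 82 members, GC content and this difference had a Pearson correlation of -0.45 and a Spearman correlation of -0.47. The part of RNA quality, dissection or library preparation in that library was not tested.

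Members with a TOP tract at a RefSeq start had a median log2 fold change of -0.15 (13 genes) and matched members without it a median of -0.16 (48 genes tested). Without WT replicate 2 the medians were -0.054 and -0.034. Rpl35, with a tract shown above, was at 46.3, 56.8 and 43.8 CPM in WT and at 37.9, 39.1 and 46.7 CPM in GFAP-IL6, and it was 1 of the 9 members with an unadjusted p under 0.05.

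Genes that work with the ribosome were taken from lists of its pathway. Among other proteins of the cytosolic ribosome, Fau and Gnb2l1 (the ribosomal scaffold Rack1) were not called, and Gnb2l1 was at a log2 fold change of 0.073 ± 0.090 (SE). Of 10 translation elongation factors and related genes, 0 were called higher and 1 lower, against 2.65% and 0.209% of all genes. That gene was Eef1e1, a scaffold protein of the tRNA synthetase complex, at a log2 fold change of -0.50 ± 0.11 (SE, adjusted p = 0.0292 in edgeR), with all GFAP-IL6 libraries below all WT libraries. Of 39 initiation factors 0 were called, with a median log2 fold change of -0.13. For 14 of the 39 every GFAP-IL6 library lay below every WT library, against 12.7% of all genes. For 2 every GFAP-IL6 library lay above, against 13.8% of all genes. Without WT replicate 2 their median was -0.098, with 31 of 39 below 0. Eif3e, a subunit of the eIF3 complex, had the smallest p among them, at -0.35 ± 0.10 (SE, adjusted p = 0.101 in edgeR). Of 54 ribosome biogenesis factors 0 were called, with a median of -0.091, and of -0.056 without WT replicate 2. For 14 of the 54 every GFAP-IL6 library lay below every WT library, and for 1 above. Rpf2, a factor for the assembly of the 60S subunit, was at -0.56 ± 0.14 (SE, adjusted p = 0.0600 in edgeR).

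Of 17 other mRNAs known to carry a TOP tract, 0 were called in all libraries, with a median of -0.093. Vim, an intermediate filament gene of astrocytes that is on this list, was at 25.3, 34.2 and 20.8 CPM in WT and at 32.4, 38.0 and 50.9 CPM in GFAP-IL6, with an adjusted p of 0.111 in edgeR for all libraries and of 0.0050 without WT replicate 2. Of 18 genes of mTORC1 and S6 kinase signalling, 1 was called higher. It was Rps6ka1, a kinase of the RSK family that can phosphorylate Rps6, at 13.0, 14.6 and 13.7 CPM in WT and 21.9, 20.1 and 25.6 CPM in GFAP-IL6, with a log2 fold change of 0.71 ± 0.12 (SE, adjusted p = 0.0049 in edgeR).

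Mitochondrial ribosomal proteins, encoded in the nucleus for the separate ribosome of mitochondria, stood at a median of -0.20 on the log2 scale. Of 77 genes, 72 lay below 0, against 50.6% of all genes, and 62 did so without WT replicate 2. For 20 of them every GFAP-IL6 library lay below every WT library, against 12.7% of all genes. In the fit of all libraries 0 were called higher and 1 lower, against 2.65% and 0.209% of all genes. The gene called was Mrpl20, at 37.6, 47.3 and 38.4 CPM in WT and 29.6, 32.0 and 25.9 CPM in GFAP-IL6 (adjusted p = 0.0333 in edgeR). Without WT replicate 2 the median of this list was -0.10 and Mrpl20 was called again, at an adjusted p of 0.0433. Cytosolic members were thus at -0.032 in the fit in which mitochondrial ones were at -0.10 and initiation factors at -0.098. These differences were not tested.

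The summed levels of some cell type markers differed between the genotypes beside these values. The 10 microglial markers summed to 439.3 to 537.0 CPM in WT and 939.9 to 1089 CPM in GFAP-IL6, and 9 of the 10 were called higher. The 8 endothelial markers summed to 189.7 to 210.1 CPM and 288.3 to 334.8 CPM, with 5 of 8 called higher. The 11 markers of infiltrating leukocytes summed to at most 7.81 CPM in WT and at most 28.1 CPM in GFAP-IL6. Of these, 6 had at most 3 counts in every library, among them Cd3d at 0. Only 2 of the 11 had enough counts to be tested. Of those, 1 was called higher, at a log2 fold change of 2.24, and the other was at -0.51 and not called. The 6 choroid plexus markers reached 608.5 CPM in WT replicate 3 and 3.22 to 59.7 CPM elsewhere. The sums of the 10 neuronal markers overlapped, at 11388 to 12526 CPM in WT and 10922 to 12095 CPM in GFAP-IL6, and 0 were called. For 4 of the 10 every GFAP-IL6 library lay below every WT library, against 12.7% of all genes, and for 0 above, against 13.8%. Their estimates were below 0 for 8 of 10, and for 10 of 10 without WT replicate 2. The part of these differences in the ribosomal protein levels was not tested.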

How the data were processed

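Counts of reads per gene were deposited by the authors as 1 table, with no normalization. The study's methods state alignment to mm10 with STAR 2.4 and featureCounts for reads that fell uniquely in GENCODE genes. The labels list hg19 as the build, but the gene identifiers are those of mouse. Whether counting used strand was not stated. The table named 19 processed copies of members, which held 1 to 14 counts per library, and reads that members share with other processed copies were not measured.

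Counts were tested with edgeR 4.0.16 in R 4.3.3 (quasi-likelihood F-test, TMM scaling, filterByExpr, Benjamini-Hochberg adjustment over the 15341 genes tested), with genotype as the only term. DESeq2 1.42.0 and limma 3.58.1 (voom) were alternatives. The edgeR script was tested on simulated data. Standard errors were derived from the F statistic. Positions, lengths of principal transcripts and GC content came from GENCODE M21 on GRCm38, the assembly of mm10, and gene lengths from the table. Start sequences came from RefSeq on GRCm38.p6. Length and GC offsets were lowess trends fitted in each library.

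Members and gene lists were chosen with earlier results of these data known. Members were named with values if called, if among the 5 highest or 5 lowest log2 fold changes, the 5 highest or 3 lowest CPM, as paralogs with their core genes, as P stalk genes, or as Rpsa, Rps6 and Rps27a, and Rpl15, Rpl35 and members without overlap were added after their values were seen. A member and a listed gene that the rule would name are not reported here. Of each list, the gene with the smallest unadjusted p in each direction could be named, and those outside the text were not called. P-values measure the spread between 3 mice per group. Floors of counts cover counting error only, as the reads carried no molecular identifiers. The intervals of the edgeR estimates also hold the variation among mice.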

Additional observations from a re-analysis of the deposited data

How the results depend on the processing

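The finding of 0 members called higher held in all 16 alternatives, and 0 called lower held in 14 of them, with 2 called without a filter on low counts and a range of 0 to 4 over the fits that each left out a library. The median log2 fold change stayed below 0 in every alternative and ran from -0.22 to -0.032 over the fits without a library, the highest being without WT replicate 2. The share of counts in members differed by less than the spread between libraries under the other denominators.

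Same-numbered libraries of the groups had correlations of deviations of 0.0996, 0.0147 and 0.0211, and libraries with different numbers had -0.077 to 0.052. Whether the replicate numbers pair the mice cannot be told from these values. With the replicate block 0 members were called, where 3.87% of all genes were called higher and 1.02% lower, 11 members were lower at an unadjusted p under 0.05 (1685 of the 15341 genes tested) and the median was -0.14, or -0.055 with the replicate block and the length offset together. In the replicate block fit Rpl10 was at 0.015 and Rpl7l1 at 0.0027. With block and length offset, Rpl10 was at 0.12, Rpl7 at 0.011, Rpl7l1 at 0.022, Rps4x at 0.052 and Rps6 at 0.052.

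Of 432 log2 fold changes of 27 named members over the alternatives, 41 had the other sign than in the fit of all libraries, none of them called. With the length offset Rpl10 was at 0.11, Rpl7 at 0.0060, Rpl7l1 at 0.014, Rps4x at 0.039 and Rps6 at 0.050. With length and GC offsets Rpl10 was at 0.19, Rpl4 at 0.034, Rpl7 at 0.11, Rpl7l1 at 0.049, Rps4x at 0.11 and Rps6 at 0.10. Rpl10 was at 0.00097 when scaling left out the members and at 0.013 in limma-voom. Rps9 was at -0.0016 in DESeq2, -0.0011 without a filter and -0.014 with libraries thinned to equal totals, where Rpl7l1 was at 0.065. Leaving out each library in turn gave -0.098 to 0.14 for Rpl10, -0.039 to 0.10 for Rpl13, -0.18 to 0.038 for Rpl7, -0.078 to 0.040 for Rpl7l1, -0.027 to 0.12 for Rps16, -0.19 to 0.11 for Rps4x, -0.11 to 0.033 for Rps6, -0.092 to 0.18 for Rps9 and -0.20 to 0.046 for Rpsa. The cause of these shifts was not tested.

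The libraries gave the tested members a median of 715.0 to 2029 counts each, and with 3 mice per group 16 of the 82 intervals lay within a 1.2-fold change in either direction.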
